A study of Mus musculus with 4 samples.

Results

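Schwann cells make proteins that keep sensory and motor neurons alive and that act back on the glia themselves. The transcripts of 9 such neurotrophic factors, Bdnf, Ntf3, Gdnf, Artn, Cntf, Lif, Clcf1, Nrg1 and Igf1, were followed in IMS32 cells, a spontaneously immortalized line of adult mouse Schwann cells. The members are the probes of a one-colour microarray that carry the symbol of 1 of these genes, which are 14 of the 39429 probes for mouse transcripts. Bdnf, Ntf3, Gdnf, Artn, Lif, Clcf1 and Nrg1 had 1 probe each, Cntf had 2 and Igf1 had 5. All cells were kept for 1 h in DMEM with 5% FBS. Glucose was 5 or 15 mM, and 1 mM pyruvate was either supplied or left out, so that cells with pyruvate form [Glc 5 mM/Pyr (+)] at the lower glucose and [Glc 15 mM/Pyr (+)] at the higher. Those without it are [Glc 5 mM/Pyr (−)] at the lower and [Glc 15 mM/Pyr (−)] at the higher. Each condition is 1 sample on 1 array, so every difference given here lacks a replicate check. IMS32 is a single cell line, dividing in culture without axons, and 1 h reads only early changes in RNA.

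The factors fall into families by receptor. The neurotrophins Bdnf and Ntf3 act through Trk receptor kinases and the shared receptor p75, and the GDNF family ligands Gdnf and Artn act through a GFRα coreceptor and the kinase Ret. Cntf, Lif and Clcf1 are cytokines that signal through gp130. Nrg1 drives ErbB receptors of Schwann cells and controls their survival and myelination, and Igf1 acts through the Igf1 receptor. Several of them are known to be made in larger amounts by Schwann cells after nerve injury.

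All 14 probes were well above background on all 4 arrays by the scanner software's own test. So were 27589 of the 39418 probes with a value on all 4 arrays. Each of the 9 transcripts was thus detected in every condition, and no spot was saturated. Levels are given as the log2 of the processed intensity minus the log2 of the array's 75th percentile over probes for mouse transcripts. This level is compared between arrays for 1 probe, and not between probes. The scanner software attached an error of 0.14 to 0.15 to each log2 level of a member, which makes about 0.20 for a difference between a pair of arrays. Probes printed several times had a median SD between spots of 0.07 to 0.08 on an array. Both errors leave out the variation between cultures, and in bulk RNA fewer cells of a type and less RNA per cell cannot be told apart. The software error was wider than the SD of the differences themselves in the brightest of 3 equal signal classes of probes, which was 0.10 for pyruvate removal at 5 mM glucose.

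Not 1 of the 14 probes differed by 2-fold in any of the 4 comparisons, and not 1 by 1.5-fold. The share of all measured probes that differed by at least 2-fold was 1.17% for pyruvate removal at 5 mM glucose, 2.10% for pyruvate removal at 15 mM glucose, 0.968% for 15 against 5 mM glucose with pyruvate and 2.40% for the same without pyruvate. At 1.5-fold these shares were 3.20%, 6.54%, 3.12% and 7.27%. At such shares a set of 14 probes with 0 past the threshold is near the background. The widest range over the 4 arrays, 0.51 on the log2 scale, was that of Clcf1, and 15.6% of the 27589 probes measured on all 4 arrays had a range at least as wide. The median range of the 14 probes was 0.26, beside 0.25 for all those probes. Between neighbours in the order of the 4 levels, the largest gap of any member was 1.44 times its software error, so that no neighbours in the order differed by 2 errors.

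**Figure D1:**
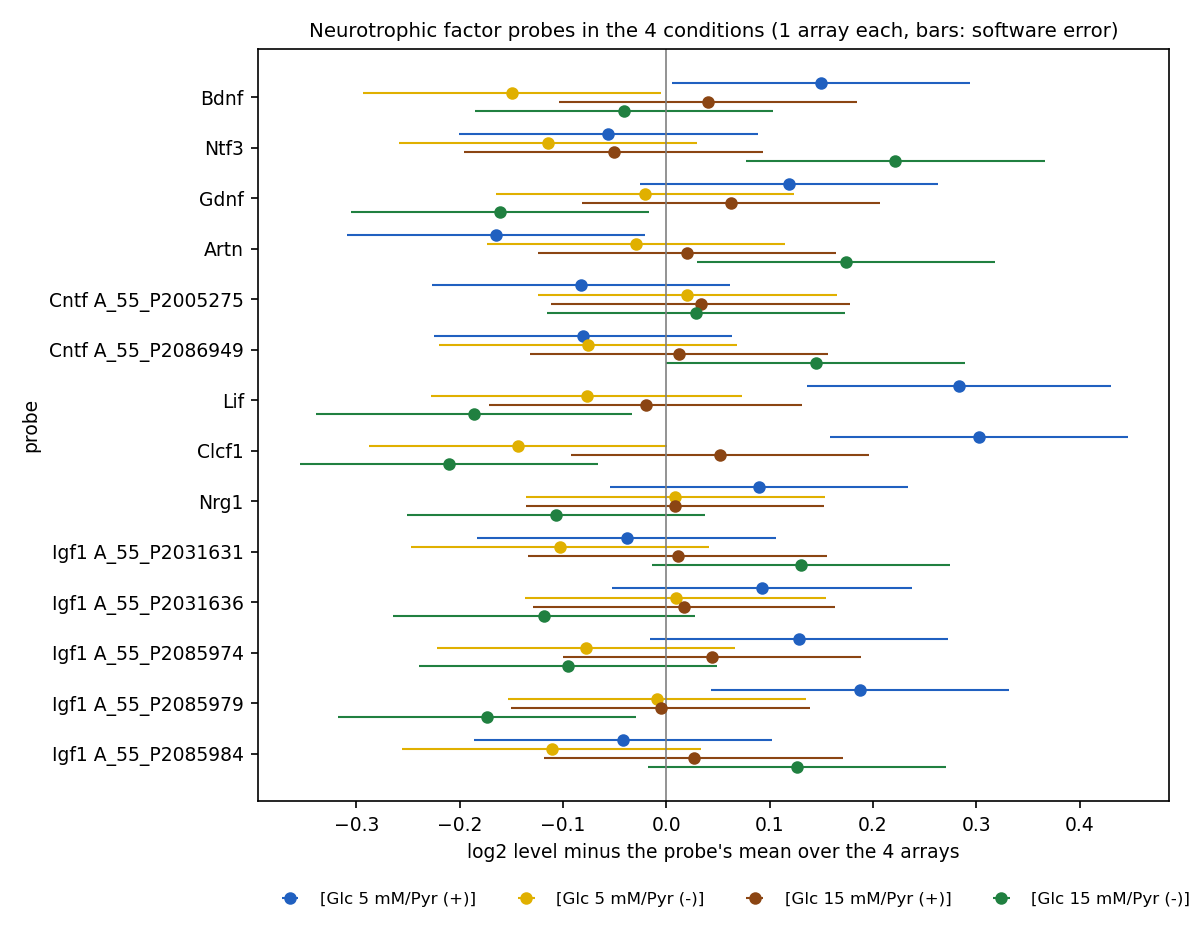
Log2 level of each of the 14 probes on the 4 arrays after subtraction of the probe's own mean, with the software error of each level as a bar (1 array per condition, 4 colours). Clcf1 and Lif reach furthest to the right in [Glc 5 mM/Pyr (+)], and over all probes the largest gap between neighbouring conditions is 1.44 times its error.

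Bdnf, the ligand of TrkB, had log2 levels of -1.59 with and -1.89 without pyruvate at 5 mM glucose, and of -1.70 with and -1.78 without it at 15 mM. Its level was highest in the medium with normal glucose and pyruvate. Pyruvate removal gave -0.30 ± 0.20 (software error) at 5 mM and -0.08 ± 0.20 at 15 mM. The first of these lay just outside the central 95% of the differences of probes of the middle signal class, which ran from -0.28 to 0.30. Ntf3, the ligand of TrkC, had log2 levels of -1.85 with and -1.91 without pyruvate at 5 mM, and of -1.84 with and -1.57 without it at 15 mM. Here the [Glc 15 mM/Pyr (−)] array stood above the other 3, which lay close together. Pyruvate removal gave -0.06 ± 0.20 at 5 mM and 0.27 ± 0.20 at 15 mM, and 15 against 5 mM glucose without pyruvate gave 0.34 ± 0.20, the highest difference of any member in any comparison. All of these lay within the central 95% for probes of their brightness.

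Gdnf, which supports motor neurons and acts through the coreceptor GFRα1, had log2 levels of 3.45 with and 3.31 without pyruvate at 5 mM glucose, and of 3.39 with and 3.17 without it at 15 mM. Both arrays without pyruvate were below both arrays with it. Its removal gave -0.14 ± 0.20 at 5 mM and -0.22 ± 0.20 at 15 mM. Artn, its relative that acts on sensory neurons through GFRα3, had log2 levels of 0.70 with and 0.84 without pyruvate at 5 mM, and of 0.89 with and 1.04 without it at 15 mM. Both arrays at 15 mM lay above both at 5 mM, the array with pyruvate at 5 mM being the lowest. Pyruvate removal gave 0.135 ± 0.20 at 5 mM, with the sign reversed to -0.03 by scaling to spike-in controls, and 0.15 ± 0.20 at 15 mM. Not 1 of the differences of Gdnf and Artn lay outside the central 95% of bright probes.

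Among the gp130 cytokines, the longest range was that of Clcf1. Clcf1 acts on the receptor of Cntf. Its probe is shown because it carries the widest range among the members. It lies at chr19:4222480-4222539 of mm9, plus strand, and its letters hold a reading frame without a stop:
Clcf1 A_51_P102421: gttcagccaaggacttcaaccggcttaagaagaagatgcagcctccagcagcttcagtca

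The log2 level of Clcf1 was 0.01 with and -0.44 without pyruvate at 5 mM glucose, and -0.24 with and -0.51 without it at 15 mM. Both arrays without pyruvate were below both with it. Removal gave -0.45 ± 0.20 at 5 mM, a 1.36-fold lower level, and -0.26 ± 0.20 at 15 mM. The first lay -2.19 software errors from 0, and 4.40% of all probes measured in that comparison lay over 2 of their errors from 0. It also lay below the central 95% of probes of the middle signal class, and 5.27% of all measured probes lay at least as far from 0. In the other 3 comparisons 0 of the 14 probes passed 2 software errors. Of all measured probes, 10.31% did so for pyruvate removal at 15 mM glucose. For 15 against 5 mM glucose the share was 4.93% with pyruvate and 11.46% without it. With 15 against 5 mM glucose, Clcf1 gave -0.25 ± 0.20 with pyruvate present and -0.07 ± 0.20 without it. All 4 of these differences kept their sign under the 6 other scalings and background corrections tried.

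Lif, a cytokine released by Schwann cells early after injury, had log2 levels of -4.02 with and -4.38 without pyruvate at 5 mM glucose, and of -4.32 with and -4.49 without it at 15 mM. Its intensity ran from 72.6 to 110, in the dimmest of the 3 signal classes, and [Glc 5 mM/Pyr (+)] was the highest array. Pyruvate removal gave -0.36 ± 0.21 at 5 mM glucose and -0.17 ± 0.22 at 15 mM, and the first became -0.11 with another background correction (normexp). Higher glucose with pyruvate gave -0.30 ± 0.21, which became 0.01 with the same correction. These differences lay within the central 95% of dim probes, which ran from -0.72 to 0.65 for pyruvate removal at 5 mM.

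Cntf, a cytokine stored in the cytoplasm of myelinating Schwann cells, was read by 2 probes on the minus strand of chromosome 19 that start 217 bases apart. The probe nearer the 3′ end is shown because its letters hold AATAAA, the usual polyadenylation signal. It lies at chr19:12838019-12838078 of mm9, and the line gives 30 of its 60 bases with the motif in capitals:
Cntf A_55_P2005275: ctgaaaagactgAATAAAcaaattggaagt

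Over all 39418 probes with a value on every array, 12.6% held these letters on the probe's strand and 4.03% held them on the other strand. The log2 level of this probe was -1.29 with and -1.18 without pyruvate at 5 mM glucose, and -1.17 with and -1.18 without it at 15 mM. That of the upstream probe A_55_P2086949 was 0.46 with and 0.47 without pyruvate at 5 mM, and 0.56 with and 0.69 without it at 15 mM. On both probes [Glc 5 mM/Pyr (+)] was the lowest array. Pyruvate removal at 5 mM glucose gave 0.10 ± 0.20 and 0.004 ± 0.20, and at 15 mM -0.005 ± 0.20 and 0.13 ± 0.20. The 2 probes differed from each other by at most 0.21 in a comparison, within the error of 0.29 on that gap.

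Nrg1 was read by 1 probe at chr8:32928500-32928559 of mm9, on the minus strand. It is shown because Nrg1 has many isoforms and the letters tell which end is read: the probe holds an open frame that closes with a stop codon at its last 3 bases, in capitals:
Nrg1 A_55_P1985433: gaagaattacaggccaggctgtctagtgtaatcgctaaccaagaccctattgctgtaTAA

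Its log2 levels were 0.91 with and 0.83 without pyruvate at 5 mM glucose, and 0.83 with and 0.71 without it at 15 mM, so that the highest was the array with normal glucose and pyruvate. Pyruvate removal gave -0.08 ± 0.20 at 5 mM glucose and -0.11 ± 0.20 at 15 mM. All 4 comparisons of Nrg1 lay within their software error.

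Igf1, a growth factor for both axons and Schwann cells, had 5 probes on the plus strand of chromosome 10. Probe A_55_P2085979, the most upstream, is assigned by the array design to transcript variant 2, and the other 4 to transcript variant 1 and further variants. The transcript record named for A_55_P2085979 was not found in the RefSeq set used here, so its assignment was not checked. The first 30 bases of A_55_P2085979, at chr10:87378456-87378515 of mm9, are shown beside a 30-base stretch that probes A_55_P2085984 and A_55_P2031631 share, since these are the places where the readings part:
Igf1 A_55_P2085979: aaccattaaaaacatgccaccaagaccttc
Igf1 A_55_P2085984 and A_55_P2031631: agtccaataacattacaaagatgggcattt

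The pair that shares this stretch overlaps over 40 bases and spans chr10:87393561-87393640, 15105 bases downstream of the first probe, and its probes are therefore near repeats of 1 measurement. The log2 level of A_55_P2085984 was 1.66 with and 1.59 without pyruvate at 5 mM glucose, and 1.73 with and 1.83 without it at 15 mM. That of A_55_P2031631 was 2.11 with and 2.05 without pyruvate at 5 mM, and 2.16 with and 2.28 without it at 15 mM. Both were highest in [Glc 15 mM/Pyr (−)], and the other 3 probes were lowest there. Probe A_55_P2085979 had -0.18 with and -0.38 without pyruvate at 5 mM, and -0.38 with and -0.54 without it at 15 mM. For A_55_P2031636 these log2 levels were -3.25 and -3.33 at 5 mM and -3.32 and -3.46 at 15 mM, and for A_55_P2085974 they were 0.16 and -0.05 at 5 mM and 0.07 and -0.07 at 15 mM. The widest disagreement came with 15 against 5 mM glucose without pyruvate, where A_55_P2085984 gave 0.24 ± 0.20 and A_55_P2085979 gave -0.16 ± 0.20. That gap of 0.40 was 1.39 times its software error of 0.29. The mean over the 5 probes was 0.03 with an SD between probes of 0.19, so the direction for Igf1 in this comparison depends on the probe read. After pyruvate removal at 5 mM glucose all 5 probes gave a negative value, from -0.21 to -0.06.

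**Figure D2:**
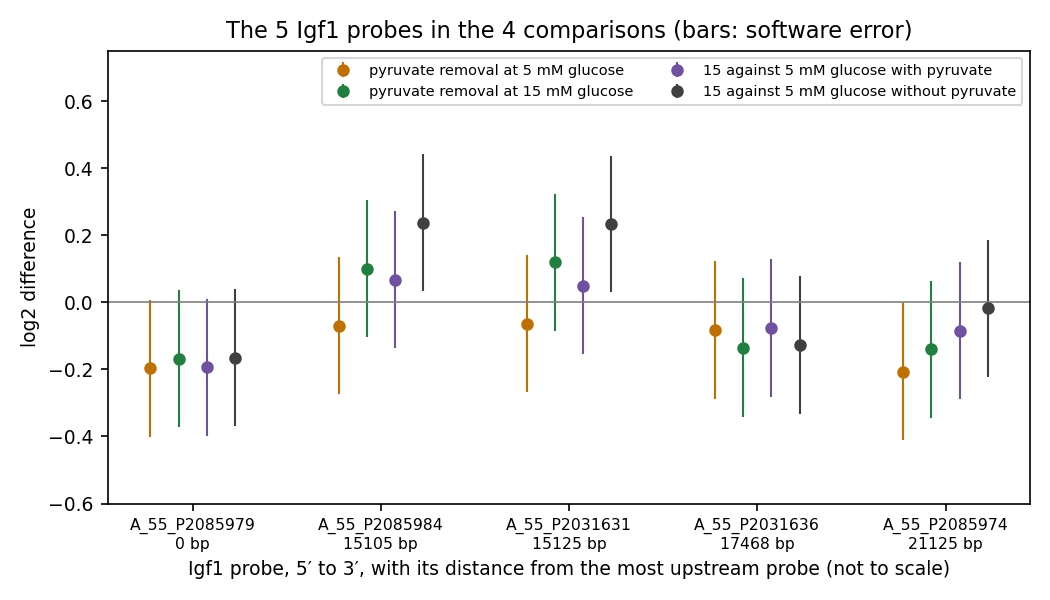
Log2 difference of each Igf1 probe in the 4 comparisons (4 colours), with the software error as a bar. Probes stand in 5′ to 3′ order with the distance from the most upstream probe in bases, and the overlapping pair lies near 0.24 and 0.23 for 15 against 5 mM glucose without pyruvate while the others lie below 0.

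Pyruvate removal gave a negative value at both glucose concentrations for 8 of the 14 probes (Bdnf, Gdnf, Lif, Clcf1, Nrg1 and 3 probes of Igf1), a positive one at both for 2 (Artn and Cntf A_55_P2086949) and opposite signs for 4. Of all probes measured on the 4 arrays, 25.2% were negative at both concentrations and 25.4% positive at both. The 5 Igf1 probes read 1 gene and are not independent of each other. The median of the 14 probes was -0.08 at 5 mM glucose, beside -0.02 for all measured probes, and -0.10 beside 0.03 at 15 mM. For 15 against 5 mM glucose the median was -0.07 with pyruvate, beside -0.02, and -0.005 without, beside 0.03. Under scaling to spike-in controls the median of all probes shifted by -0.17 for pyruvate removal at 5 mM glucose and by -0.02 at 15 mM. The shift was -0.30 for higher glucose with pyruvate present and -0.15 where it was left out. It then gave all 14 probes a negative value for pyruvate removal at 5 mM and for higher glucose beside pyruvate. Because this scaling shifts all probes of an array alike, it cannot change the members' distance from the median of all probes.

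The rise from 5 to 15 mM glucose was read from another pairing of the same arrays, once with pyruvate and once without. Artn gave 0.19 ± 0.20 with pyruvate and 0.20 ± 0.20 without it, though spike-in scaling turned the first to -0.12. Nrg1 gave -0.08 ± 0.20 and -0.12 ± 0.20, and Gdnf -0.06 ± 0.20 and -0.14 ± 0.20, both below 0 under every scaling tried. Bdnf gave -0.11 ± 0.20 with pyruvate and 0.11 ± 0.20 without it, the latter turning to -0.05 under spike-in scaling. Cntf gave 0.12 ± 0.20 and 0.01 ± 0.20 on the probe with the motif and 0.09 ± 0.20 and 0.22 ± 0.20 on the upstream one. Lif without pyruvate gave -0.11 ± 0.21. In these comparisons 0 of the 14 probes lay outside the central 95% of probes of their signal class.

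**Figure D3:**
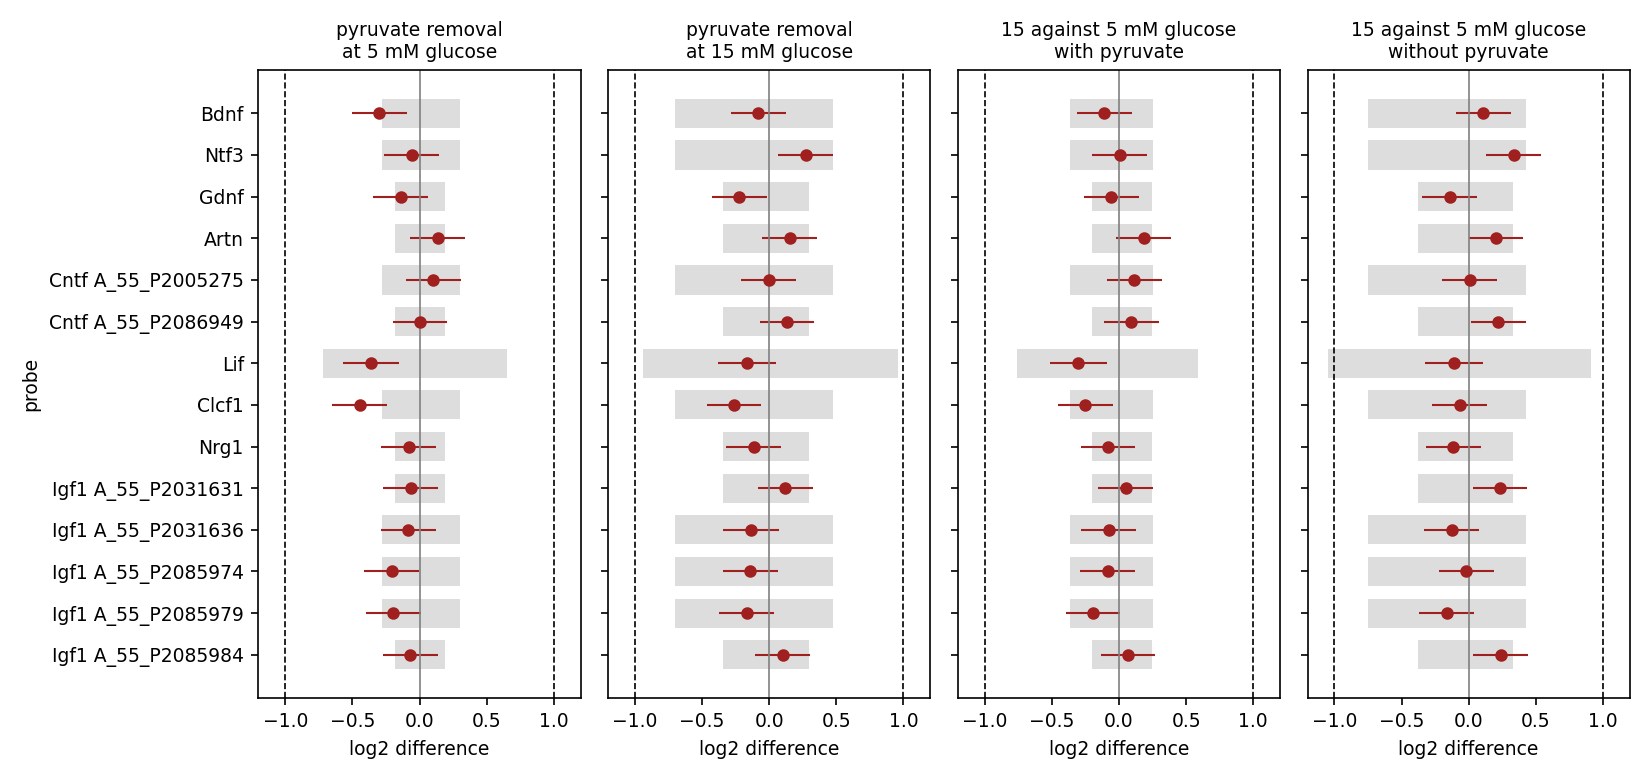
Log2 difference of each of the 14 probes (points, with software error) in the 4 comparisons, 1 array against 1 array. Grey bars give the central 95% of the differences of probes in the same signal class and dashed lines mark 2-fold, and in the first panel Bdnf at -0.30 and Clcf1 at -0.45 lie outside their grey bars.

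An additive fit of pyruvate and glucose over the 4 arrays (limma, 1 residual degree of freedom, 31274 probes) called 0 of the 14 probes for either factor after Benjamini-Hochberg adjustment, and 0.00% of all probes. In that fit 0 members had an unadjusted p under 0.05, beside 1081 probes of all genes for pyruvate and 1490 for glucose. The member with the smallest p was Clcf1 for pyruvate, with an estimate of -0.35 (SE 0.11) and an adjusted p of 0.988 in limma. Lif followed with -0.26 (SE 0.11) and the same adjusted p. That fit takes any dependence of the pyruvate difference on glucose as its error. Pyruvate, glucose and their crossing together leave 0 residual degrees of freedom on 4 arrays, so the dependence itself could not be tested. A limma fit of pyruvate and the crossed term, in which each probe's glucose difference serves as the error, called 0 members and 0.00% of all probes, with 861 probes of all genes at an unadjusted p under 0.05, and says nothing about whether the pyruvate difference was alike at the 2 glucose levels.

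The shape of Clcf1 over the 4 arrays was set against 21201 probes of named genes measured on all 4. The nearest by Euclidean distance of the mean-centred log2 levels were Errfi1 at 0.03, an inhibitor of the EGF receptor family, then Ttc26 at 0.04 and Gpr137c at 0.05. Errfi1 had log2 levels of 4.72 with and 4.28 without pyruvate at 5 mM glucose, and of 4.49 with and 4.24 without it at 15 mM. With 4 values per probe and so many probes searched, close shapes are easily found, and this is a description only.

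Receptors, other ligands and processing enzymes of the same families, 68 genes in all, were read beside the factors. Between 54 and 57 of them were measured on both arrays of a comparison, and the median of their differences was -0.06 and -0.02 for pyruvate removal at 5 and 15 mM glucose. For the rise in glucose it was -0.05 beside pyruvate and -0.02 without it. Past 2-fold there were 0 of 5 measured neurotrophin receptors, 0 of 6 GDNF family receptors, 0 of 5 gp130 cytokine receptors and 0 of the IGF receptors and binding proteins in all 4 comparisons, and 0 of the 3 or 4 measured neuregulin receptors. Among the 9 measured processing enzymes 1 was lower by 2-fold at 5 mM glucose, and among 18 measured ligands 1 was higher by 2-fold with more glucose in the absence of pyruvate. The enzyme was Mmp7, a protease that can cleave neurotrophin precursors, with intensities of 56.5 with and 19.6 without pyruvate at 5 mM, and of 53.7 with and 34.9 without it at 15 mM. The removal of pyruvate gave -1.49 ± 0.28 at 5 mM, but -0.43 with normexp background correction. The ligand was Pspn, the GDNF relative persephin, with intensities of 18.1 with and 12.4 without pyruvate at 5 mM, and of 10.2 with and 27.3 without it at 15 mM. Its difference was 1.24 ± 0.37, or 0.27 with normexp, and it was well above background on 3 arrays.

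Ret, Osmr, Igfbp1, Nrg3, Areg, Pcsk1, Pcsk5, Pcsk6 and Plau were not well above background on any array. The signaling kinase of the GDNF family is thus among the undetected transcripts, while the ligand Gdnf and all 4 GFRα coreceptors were detected. The brightest genes of the receptor, binding protein and enzyme lists had the following values. Ngfr, the p75 receptor, gave 0.09 ± 0.06 and 0.03 ± 0.06 after pyruvate removal at 5 and 15 mM glucose. Erbb2, a kinase of the neuregulin receptor, gave 0.10 ± 0.07 and 0.01 ± 0.07. A probe's software error was divided by the root of its number of spots on the array, so a small error does not stand for more arrays. Il6ra, the receptor of interleukin 6, gave 0.03 ± 0.20 and -0.45 ± 0.20, and 15 against 5 mM glucose without pyruvate gave -0.50 ± 0.20. Igfbp3, which binds Igf1 outside the cell, gave -0.15 ± 0.20 and 0.10 ± 0.20, and Adam10, a protease that sheds membrane proteins, 0.02 ± 0.20 and -0.12 ± 0.20. The signs of the values at 5 mM glucose for Ngfr, Erbb2, Il6ra and Adam10 turned negative under spike-in scaling, and those of Ngfr and Erbb2 at 15 mM turned under at least 1 alternative. The brightest probe of Ncam1, an alternative receptor of Gdnf, gave -0.03 ± 0.20 and -0.29 ± 0.20.

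**Figure D4:**
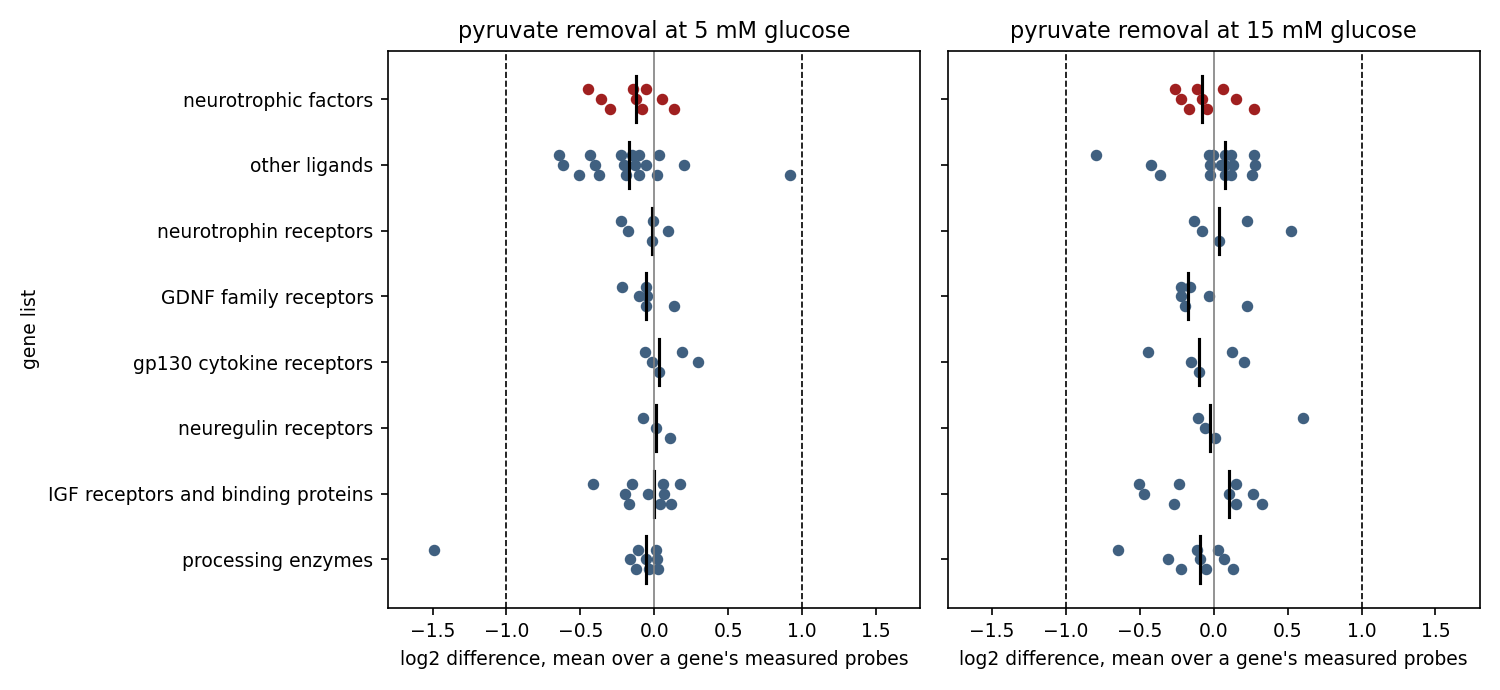
Log2 difference after pyruvate removal at 5 mM (left) and 15 mM glucose (right) for each gene of the 9 factors and of the partner lists, as the mean over a gene's measured probes, with the list's median as a black bar and 2-fold as dashed lines. Mmp7 at -1.49 among the processing enzymes is the 1 gene left of the 2-fold line, and the 9 factors stay between -0.45 and 0.27.

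The cells' label was checked against markers. All 15 Schwann cell markers, among them Sox10, S100b and Ngfr, were well above background on all 4 arrays by at least 1 probe, though Erbb3 had intensities of only 15.6 to 22.2. The sum of their relative signals (brightest probe of a gene, in units of the 75th percentile) ran from 48.1 to 54.8. Egr2, a regulator of myelination, gave -0.58 ± 0.20 and -0.27 ± 0.20 after pyruvate removal at 5 and 15 mM glucose, against medians of 0.07 and 0.03 over the 15 Schwann cell markers, of which 0 passed 2-fold in either comparison. Markers of other cells were summed likewise. The 6 fibroblast markers, 5 on all arrays, ran from 6.47 to 7.48. The 5 macrophage markers ran from 1.45 to 1.53 on 3 arrays and 1.94 in [Glc 15 mM/Pyr (−)], where Cd68 was 0.88 ± 0.20 above [Glc 15 mM/Pyr (+)]. The median over these 5 markers was 0.03 in that comparison, and Aif1 and Ptprc gave -0.22 ± 0.20 and -0.27 ± 0.27. Of 4 endothelial markers Cdh5 was not detected, and of 5 neuron markers Syt1 was not, with sums of 2.65 to 3.19 and 3.67 to 5.43. For 15 against 5 mM glucose without pyruvate 2 of the 4 measured neuron markers passed 2-fold, Rbfox3 at 1.18 ± 0.28 and Nefl at 1.22 ± 0.27, with a list median of 0.71. Both were dim, with intensities of 20.2 and 42.7 for Rbfox3 and 24.5 and 53.7 for Nefl. Their lowest values under the alternatives were 0.34 and 0.45. The other Rbfox3 probes were not measured in this comparison, A_51_P313651 with intensities of 6.42 and 2.04 and A_55_P2053372 with 7.21 and 6.66. Snap25, with intensities of 8354 and 5470, gave -0.52 ± 0.20. The markers' part in the factors' values was not tested.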

How the data were processed

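RNA of IMS32 cells was measured in 4 conditions on 1 Agilent one-colour array each, all on 1 slide. The authors deposited the output of Agilent Feature Extraction 11.5.1.1 (version per the labels), whose processed values are spot intensity, background-corrected within the array and not scaled between arrays. A second table deposited by the authors holds a ratio, the same intensity over 1 factor per array close to its 75th percentile. How GeneSpring GX was set is not given in the sources used here.

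Outlier and control spots were left out, spots of a probe were averaged, and the log2 of intensity was set against each array's own 75th percentile (1597 to 1788). Between 28470 and 30344 probes were well above background. Precision is limited by the number of arrays, and with 1 array per condition the p-values measure no spread between replicates. Their error is what each fit left over on 1 residual degree of freedom, pooled by limma with that of other probes. Differences between 2 arrays got no test. They were called at 2-fold among probes well above background on both. The limma fits (limma 3.58.1, R 4.3.3, threshold 0.05) used probes that passed this mark on 1 array or more. Other steps used Python 3.11.15, numpy 2.4.6 and pandas 2.3.3. The fits were also run on simulated data that held pyruvate effects larger than any member difference and no glucose effect. That run does not cover effects of the members' size.

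Symbols and positions (mm9) are those of the array design, and all 9 symbols are in RefSeq's GRCm38.p6 table. Exons and UTRs of mm9 were not looked up here. Named are all members, partner genes past 2-fold in a comparison, the brightest gene of each list and Schwann cell markers. So are the 3 genes nearest in shape to the member with the widest range, and some others that limit a result. A few of these genes are left unreported, though counts and medians include them. Members and lists were chosen with earlier results of these data known. Alternatives were 5 other scalings or corrections, the authors' ratio, a 1.5-fold threshold, stricter and no filtering of dim probes, 1 probe per gene (its brightest) and a limma fit with an intensity trend.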

Additional observations from a re-analysis of the deposited data

Results flagged for a closer look

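For 4 of the 14 probes the difference after pyruvate removal had opposite signs at 5 and 15 mM glucose, which was seen for 49.4% of all probes measured on the 4 arrays. With 1 array per condition the pairwise differences themselves were not tested. Ntf3 gave -0.06 and 0.27, so the value at 15 mM minus that at 5 mM was 0.33 ± 0.29 (software error). Cntf probe A_55_P2005275 gave 0.10 and -0.005, a change of -0.11 ± 0.29. The overlapping Igf1 probes A_55_P2031631 and A_55_P2085984 gave changes of 0.18 ± 0.29 and 0.17 ± 0.29, from -0.06 to 0.12 and from -0.07 to 0.10.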

How the results depend on the processing

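The count of member probes past 2-fold was 0 in all 4 comparisons under every alternative, and limma called 0 members in every additive fit. The median over the member probes moved by more than the spot-to-spot spread of 0.11 under spike-in scaling, to -0.25 for pyruvate removal at 5 mM glucose, -0.37 for more glucose with pyruvate present and -0.16 without it, the last also to 0.11 with the brightest probe of each gene. Of 336 single values under 6 other scalings and corrections, 45 moved by more than that spread (42 under spike-in scaling) and 19 changed sign, none of them called. Clcf1 after pyruvate removal at 5 mM ran from -0.61 to -0.44. At an unadjusted p under 0.05 limma gave 1 member for pyruvate under 4 alternatives, beside 3.51% to 4.99% of all probes, and 2 with an intensity trend, beside 4.76%.

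Over all genes, the 2-fold counts of 340, 583, 273 and 678 in the order of comparisons fell to 10, 100, 8 and 112 with normexp and were 1650, 2545, 1621 and 2761 without a filter, 930, 1818, 880 and 2050 at 1.5-fold, and 431 for glucose with pyruvate under spike-in scaling. The fit with the crossed term, whose error is the glucose difference and which is no test of an interaction, called 415 probes under spike-in scaling, 155 with normexp and 4 with the trend, in place of 0. The causes were not tested. No paired analysis was possible because each group has 1 sample, and leaving out an array leaves no residual degree of freedom. Signal near background limits Lif most.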
